A study of Mus musculus with 25 samples.

Results

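The clustered protocadherins are cell-surface adhesion proteins encoded by 3 neighbouring gene clusters, alpha, beta and gamma, on mouse chromosome 18. Their symbols (Pcdha, Pcdhac, Pcdhb, Pcdhga, Pcdhgb and Pcdhgc with a number) picked out 58 of the 24421 genes listed in 4 tables of differential expression from mouse hypothalamus. Of these, 14 were alpha, 22 beta and 22 gamma members. The family was chosen because 1 member, Pcdhgb8, was lower in one of the 4 comparisons, that of males weaned onto a hypercaloric diet. The members' values in that comparison are therefore a description and carry no test here.

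Clustered protocadherins bind the same isoform on a facing cell, and neurons use them to tell their own branches from those of other neurons. Each neuron switches on a small set of alpha, beta and gamma promoters, a choice that involves the DNA-binding protein CTCF, the cohesin ring and DNA methylation of the promoters. In the alpha and gamma clusters a long variable exon, which encodes the extracellular, membrane-spanning and first cytoplasmic parts, is spliced to 3 constant exons shared by the whole cluster. Beta members are single-exon genes with no shared cytoplasmic end. The 5 C-type members (Pcdhac1, Pcdhac2, Pcdhgc3, Pcdhgc4 and Pcdhgc5) are used in a less random way, and gamma C-type proteins are known for roles in neuron survival and dendrite growth.

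RNA was taken from the whole hypothalamus of wild-type C57BL/6J mice at 3 months of age. Dams ate either a hypercaloric diet (HCD, 52% fat with high sucrose) or regular chow (RD), starting 1 month ahead of mating and lasting through pregnancy and nursing. The pups were weaned onto one of the same 2 diets. Crossing dam diet, weaning diet and sex gave 8 groups and 25 samples, with 3 samples per group except 4 in males of RD dams weaned onto RD. The 4 comparisons each set offspring of HCD dams against offspring of RD dams, within HCD-weaned males, HCD-weaned females, RD-weaned males and RD-weaned females, and share no samples. Where 4 values are listed without group names, they stand in that order. Negative log2 fold changes below mean lower in the offspring of HCD dams. For the RD-weaned tables that direction rests on the order of the groups in the labels alone, and all signs of a table would turn if the order were read wrongly.

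Only the authors' deposited tables were used, which give a mean over both groups, a fold change and its standard error, but no value for a single sample. The mean normalized counts of all genes summed to between 15402649 in RD-weaned males and 26951335 in HCD-weaned males, in the authors' deposited tables. For the comparison of RD-weaned males the labels list 7 samples while the library files hold 6 columns. All 18 hypothalamic marker genes looked up, among them Oxt, Pmch and Pomc, were listed above 0 in each deposited table. The tissue is a mixture of cells, so fewer cells that express a protocadherin and less of its RNA per cell cannot be told apart.

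The 3 clusters lie on the plus strand of chromosome 18 of GRCm38, the assembly also called mm10, in the order alpha (36930184-37187661), beta (37264938-37524479) and gamma (37661793-37841873), by the GENCODE M21 annotation. All 22 beta members had 1 exon there. Of the 13 alpha members with a gene model all had 4 exons, and of the 22 gamma members 21 did. The median longest transcript was 5341 bases in alpha, 3714 in beta and 4721.5 in gamma members, against 2701 over all genes of the tables with a length.

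Because the constant exons are shared, a median of 46.4% of an alpha member's exonic bases and 55.3% of a gamma member's belonged to no other gene, against 100% for beta. How reads in the shared exons were credited is not given in the sources used here, so the members of the alpha cluster, and those of the gamma cluster, are not independent readings. The lowest alpha member above 0, Pcdha8, had mean normalized counts of 2.31, 2.50, 1.55 and 1.06 in the 4 tables of the authors' deposit. The lowest gamma means in the same deposited tables were 49.4 (Pcdhga1), 13.1, 7.65 and 16.8 (all Pcdhgb8). The part of shared reads in the members' values was not tested.

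Pcdha4, Pcdha6 and Pcdha7 were listed at 0 in each of the 4 deposited tables. In RefSeq the span of each is also held by a read-through gene that starts there and runs to the end of the gamma cluster (Gm37013 for Pcdha4, Gm38666 for Pcdha6), and those genes were listed between 0 and 0.63 in the authors' deposited tables. The remaining 55 members were detected. A mean normalized count of 10 or more, the level below which the authors' tables give no adjusted p, was reached by 52, 51, 51 and 52 members. Next to that level were, for example, Pcdha3 at 6.99 and Pcdhac1 at 10.1 in the authors' deposited table of HCD-weaned females. In RD-weaned males the nearest members were Pcdha1 at 7.98 below and Pcdha11 at 11.4 above, in the authors' deposited table.

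Levels differed more between members than between comparisons. Gamma members made up 55.4% to 61.1% of the family's summed mean normalized count, beta members 29.97% to 39.3% and alpha members 5.39% to 8.94%. Per kilobase of longest transcript, Pcdhgc3 was the highest member in each deposited table, with 238, 163, 188 and 222 mean normalized counts per kilobase. Pcdhb9, a beta member, followed with 119, 96.8, 91.4 and 115 counts per kilobase in the same deposited tables. Pcdhgc5 had 99.2, 58.1, 61.7 and 88.6 counts per kilobase in the authors' deposited tables. These levels were divided by the whole longest transcript, shared exons included. A median of 46.4% of exonic bases in alpha members and 55.3% in gamma members belonged to no other gene, against 100% in beta. How reads in the shared exons were credited is not given. Levels per kilobase may therefore not be like for like between beta and the other clusters.

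Within the alpha cluster the C-type member Pcdhac2 stood above the rest, with 50.8, 25.2, 44.0 and 38.7 counts per kilobase in the authors' deposited tables. The next alpha members, Pcdha9 and Pcdha12, had between 4.03 and 10.7 counts per kilobase over the authors' deposited tables. Pcdhac1, the other alpha C-type member, had between 1.87 and 5.15 counts per kilobase. In the beta cluster Pcdhb7 varied from 24.97 per kilobase in RD-weaned males to 90.6 in females weaned onto HCD, by the authors' deposited tables. By the mean over the 4 tables, the highest gamma A members were Pcdhga7 (24.2 to 41.6) and Pcdhga11 (23.9 to 46.8), and the highest gamma B members were Pcdhgb6 (29.2 to 38.9) and Pcdhgb7 (13.8 to 35.4), all per kilobase in the authors' deposited tables. The tables were normalized separately, so a level set across them also carries their different scales.

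**Figure D1:**
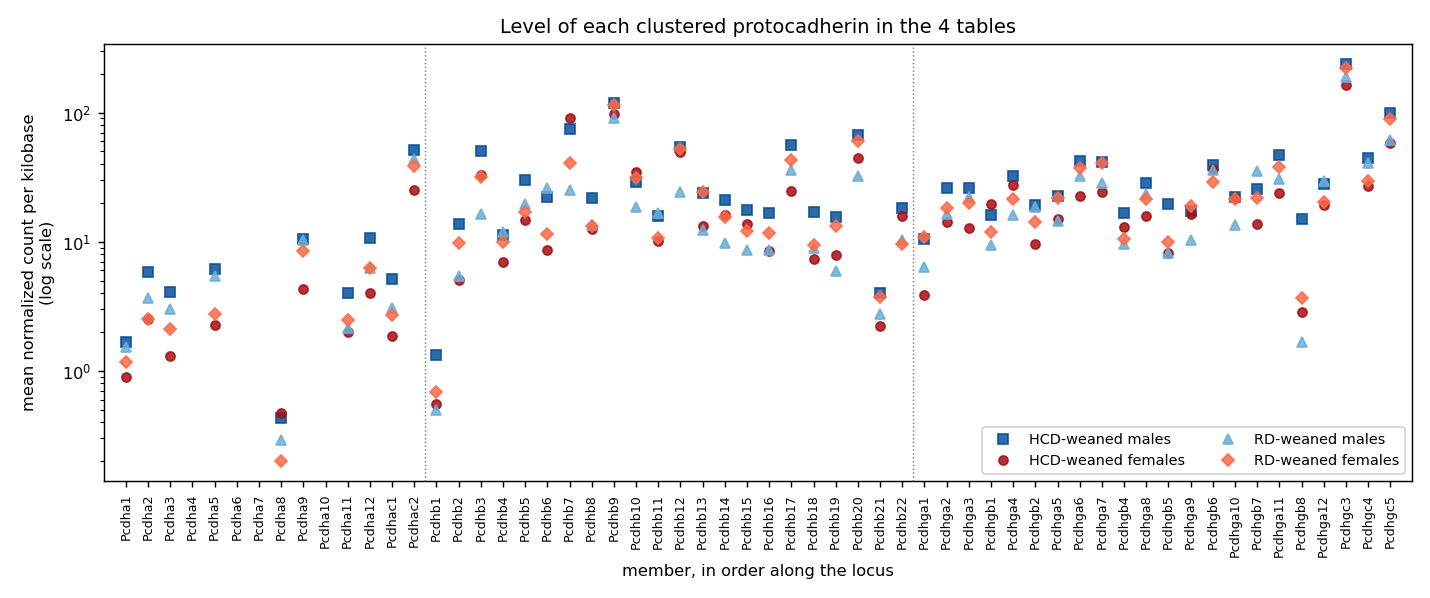
Mean normalized count per kilobase of longest transcript (log axis) of each member, in order along the locus, in the 4 tables (one marker per table, dotted lines between the clusters). The C-type members Pcdhac2, Pcdhgc3 and Pcdhgc5 stand above their neighbours, Pcdha4, Pcdha6 and Pcdha7 are listed at 0 and Pcdha10 has no length, and Pcdhgb8 is the member whose 4 levels lie farthest apart, from 1.66 to 14.9 per kilobase.

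Pcdhgb8, the member the family was chosen for, is the last gene of the gamma B type, at 37761801-37841870 of chromosome 18. RefSeq lists it as a transcribed pseudogene and GENCODE as a polymorphic pseudogene, so its transcript may not yield a full protein. In the authors' deposited table of HCD-weaned males its log2 fold change was -1.41 (standard error 0.32, adjusted p = 0.0147), which is 2.67-fold lower in the offspring of HCD dams. It was the only member with an adjusted p under 0.05 in any table, beside 0.163% of the 15384 genes tested in that comparison. Its log2 fold changes were -0.29 (standard error 0.32) in HCD-weaned females and -0.30 (standard error 0.22) in RD-weaned females, where the authors listed adjusted p-values of 0.837 and 1.00. In the authors' deposited table of RD-weaned males its mean was under 10 and lacked an adjusted p, with a log2 fold change of -0.07 (standard error 0.30). Its means in these other comparisons were lower than in HCD-weaned males, and fold changes at low counts appear pulled toward 0. The size of its fold change is therefore not like for like across comparisons.

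Pcdhgb8 also stood apart in its level. Its mean normalized count was 69.0 in HCD-weaned males, against 13.1, 7.65 and 16.8 in the other tables of the authors. The ratio of the first value to the next highest was 4.11, or 3.60 when each mean was first divided by its table's sum. The same ratio lay between 0.72 and 1.97, with a median of 1.13, in the 50 members with a mean of 10 or more in every table. Among the 15384 genes of the males' table that reached a mean of 10, 7 had a ratio as high, and Pcdhgb8 was the only one of them with a mean of 10 or more in another table as well. The table gives no mean for each group and no value for a single sample. Its fold change places the higher mean in the offspring of RD dams, but which samples hold the high counts is not shown.

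Across the family in HCD-weaned males, 44 of the 52 members with a mean of 10 or more had a log2 fold change below 0, beside 51.1% of all genes, and the median was -0.40, against -0.0091 for all genes. The clusters differed in this: 22 of 22 gamma members were below 0 with a median of -0.60 (1.51-fold lower), 8 of 9 alpha members with a median of -0.30, and 14 of 21 beta members with a median of -0.05. Over the 21 gamma members other than Pcdhgb8 the median in the same table was -0.59. Alpha members had a median mean normalized count of 31.4, against 122 in gamma members, so alpha fold changes may be pulled further toward 0.

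The gamma values were close together. Without Pcdhgb8 they ran from -0.87 (Pcdhga6, standard error 0.31) to -0.35 (Pcdhga12, standard error 0.32), in the authors' deposited table of HCD-weaned males. All 22 lay more than 1 standard error below 0, and 18 of 22 lay within 2 standard errors of it. Pcdhgb2 followed Pcdhga6 with -0.67 (standard error 0.32) in the authors' deposited table. The C-type members lay between -0.59 (Pcdhgc5) and -0.35 (Pcdhac1), with Pcdhgc3 at -0.57, Pcdhgc4 at -0.52 and Pcdhac2 at -0.49, in the authors' deposited table of HCD-weaned males. The 3 highest members were all beta: Pcdhb10 at 0.24, Pcdhb9 at 0.18 and Pcdhb20 at 0.13, each within 1 standard error of 0 in the deposited table. An unadjusted p under 0.05 was listed for 7 members, all gamma and all negative, beside 8.14% of genes tested, or 4.73% counting negative ones.

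**Figure D2:**
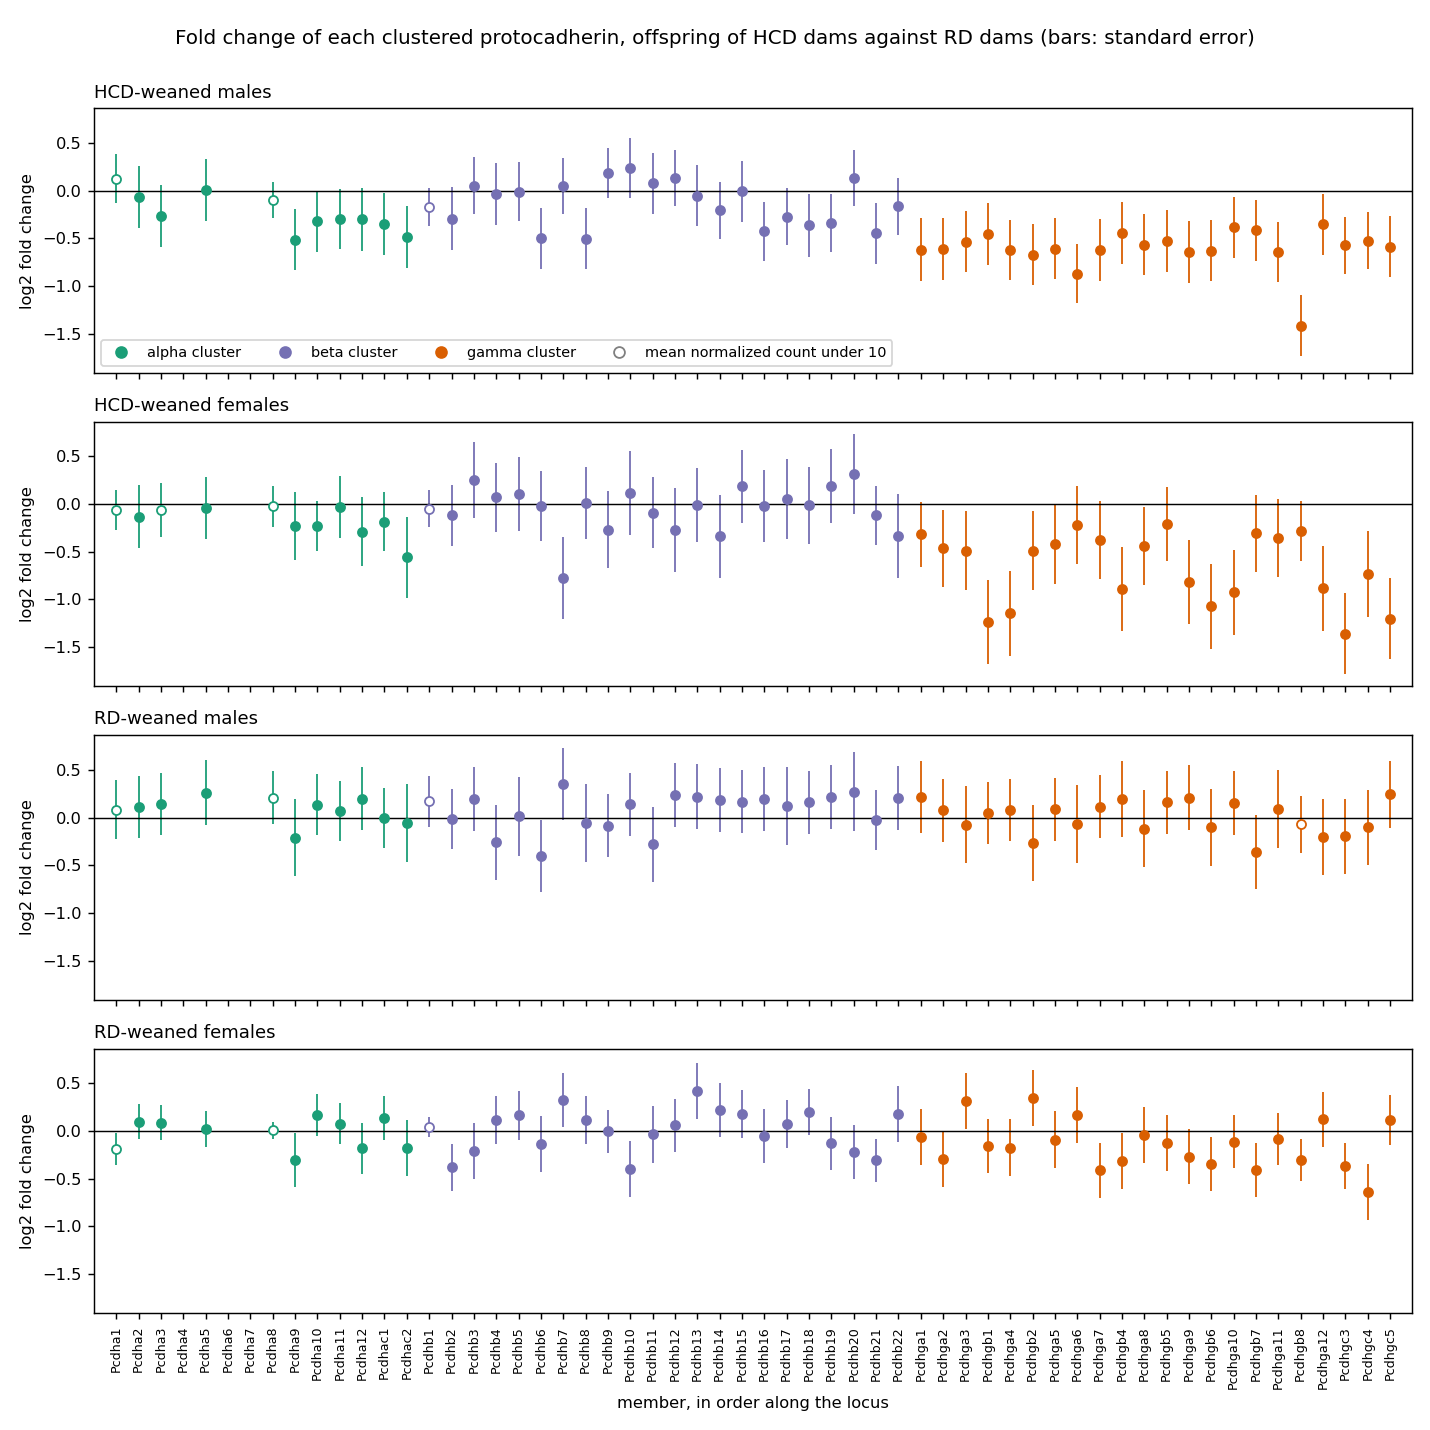
Log2 fold change (points) with its standard error (bars) of every member above 0, in order along the locus, one panel per comparison and one colour per cluster. Open points are members with a mean normalized count under 10. All 22 gamma points lie below 0 in HCD-weaned males and in HCD-weaned females, and gamma points lie on both sides of 0 in the RD-weaned tables.

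HCD-weaned females gave a comparison that the choice of the family did not use. No member passed an adjusted p of 0.05 there, beside 1.52% of the 15043 genes tested. An unadjusted p under 0.05 was listed for 8 of 51 members tested, all of them gamma and all negative, beside 13.3% of genes tested, or 6.22% counting negative ones. The 8 were Pcdhgc3, Pcdhgc5, Pcdhgb1, Pcdhga4, Pcdhgb6, Pcdhga10, Pcdhgb4 and Pcdhga12.

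The lowest was Pcdhgc3, the most abundant member, with a log2 fold change of -1.36 (standard error 0.42) that missed the threshold (adjusted p = 0.0655) in the authors' deposited table. Pcdhgb1 had -1.23 (standard error 0.44, adjusted p = 0.129) and Pcdhgc5 -1.20 (standard error 0.43, adjusted p = 0.124) in the same table of the authors. The remaining C-type members were Pcdhgc4 at -0.73, Pcdhac2 at -0.56 and Pcdhac1 at -0.19, and the authors listed adjusted p-values of 0.511, 0.661 and 0.932 for them. None of these met the threshold, and since the labels name no litters, these p-values reflect only how far the given samples varied.

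By cluster, 22 of 22 gamma members with a mean of 10 or more, 8 of 8 alpha members and 12 of 21 beta members were below 0 in HCD-weaned females, beside 45.6% of all genes. The medians were -0.49 for gamma, -0.21 for alpha and -0.01 for beta, against 0.04 for all genes. Median mean normalized counts were 14.3 in alpha and 84.8 in gamma members, so alpha fold changes may be pulled further toward 0. Gamma values were more widely spread than in HCD-weaned males, from -1.36 to -0.21. Of the 22, 7 lay within 1 standard error of 0 and 15 within 2. The most positive members were again beta: Pcdhb20 at 0.32, Pcdhb3 at 0.25 and Pcdhb19 at 0.19, and in the authors' deposited table each lay within 1 standard error of 0. Pcdhb7, next to Pcdhb9 among beta members in that table by level per kilobase, had the lowest beta value, -0.77 (standard error 0.43, adjusted p = 0.434) in the authors' table.

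**Figure D3:**
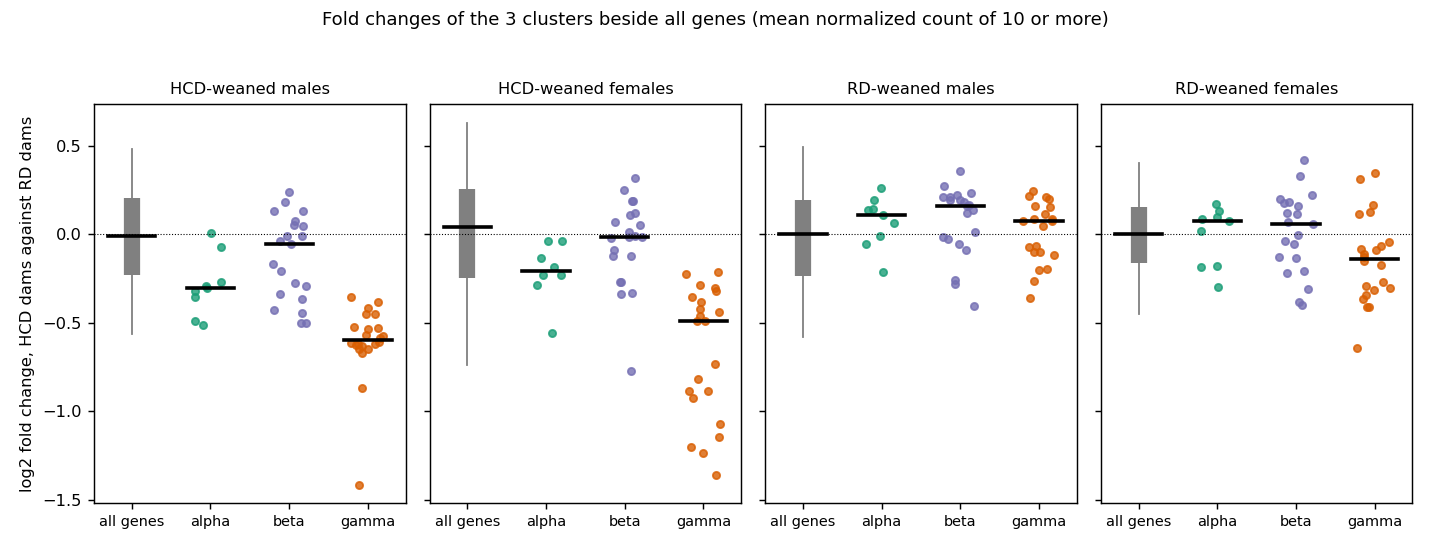
Log2 fold changes of members with a mean normalized count of 10 or more, by cluster and comparison (points, with the median as a black line), beside all genes at that level (thick grey bar from the 25th to the 75th percentile, thin line from the 5th to the 95th, black line at the median). Gamma medians are -0.60 and -0.49 in HCD-weaned males and females and 0.07 and -0.14 in RD-weaned males and females.

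Males and females weaned onto HCD shared the direction of the gamma cluster but not the order of its members. Over the 22 gamma members Pearson's r between the 2 sets of fold changes was -0.35, over the 21 beta members -0.03 and over 8 alpha members 0.66. These correlations are across genes of a single locus, with exons shared within the alpha and within the gamma cluster, and are given as a description. Pcdhgb8 and Pcdhga6, the lowest in males, had -0.29 and -0.22 in females in the authors' deposited tables, among the values nearest to 0 in the cluster. Pcdhgc3 and Pcdhgb1, the lowest in females, had -0.57 and -0.45 in males in the deposited tables.

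**Figure D4:**
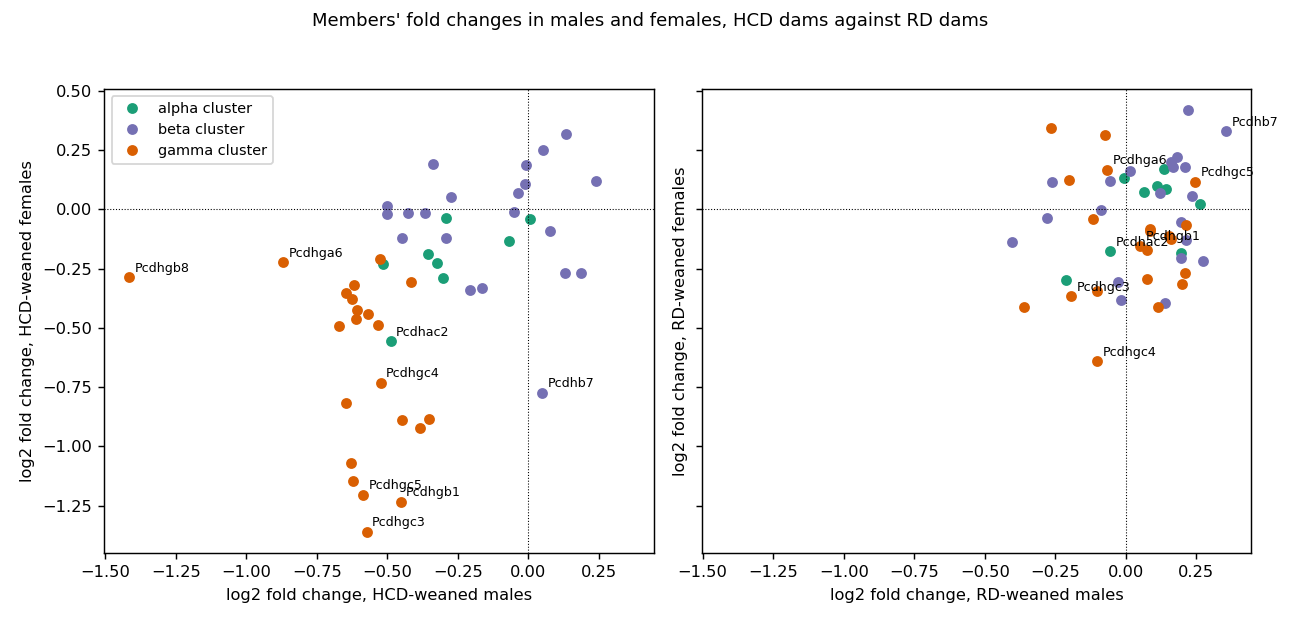
Log2 fold change of each member with a mean normalized count of 10 or more in both tables, males on the horizontal and females on the vertical axis, for HCD-weaned (left) and RD-weaned offspring (right), coloured by cluster with some members named. On the left all 22 gamma members fall in the lower left quadrant, with Pcdhgb8 far to the left and Pcdhgc3 lowest; on the right the points scatter around 0.

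In RD-weaned males no member passed an adjusted p of 0.05, beside 0.0851% of the 12920 genes tested, and none of the 32 members tested had an unadjusted p under 0.05, beside 4.3% of genes. Of 51 members with a mean of 10 or more, 19 were below 0, beside 49.7% of all genes, and the median was 0.09, against 0.0021 for all genes. The cluster medians were 0.07 for gamma, 0.16 for beta and 0.11 for alpha. Of the tested members the lowest were Pcdhb6 (-0.41), Pcdhgb7 (-0.36) and Pcdhb11 (-0.28), and the highest were Pcdhb20 (0.27), Pcdha5 (0.26) and Pcdhgc5 (0.25), in the authors' deposited table. Of the 51 members, 50 lay within 1 standard error of 0. The other C-type members were Pcdhgc3 at -0.19, Pcdhgc4 at -0.10, Pcdhac2 at -0.06 and Pcdhac1 at -0.01, in the authors' deposited table.

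A p-value was missing for more of the family than of all genes in RD-weaned males. Of the 51 members with a mean of 10 or more, 19 (37.3%) carried no p-value in the authors' deposited table, beside 10.7% of all genes at that level. They were 10 of 21 beta, 7 of 21 gamma and 2 of 9 alpha members, among them Pcdhb7, Pcdhga7 and Pcdhgb1. Of these 19, 16 were above 0 with a median of 0.15, and 16 of the 32 members with a p-value were above 0 with a median of -0.02, a difference that was not tested. Among gamma members the median was 0.11 for the 7 without a p-value and -0.09 for the 14 with one. Over all genes of the table the medians were 0.02 without and 4.8e-05 with a p-value. The table does not say why a p-value is missing.

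In RD-weaned females no member was called, beside 0.346% of the 15028 genes tested, and none of 51 members had an unadjusted p under 0.05, beside 6.16% of genes. Members lay below 0 in 30 of 52 cases, beside 49.4% of all genes, with a median of -0.06, against 0.0033 for all genes. The gamma cluster had 17 of 22 members below 0 and a median of -0.14, with 10 of 21 and 0.06 for beta, and 3 of 9 and 0.08 for alpha. The lowest member was Pcdhgc4 at -0.64 (standard error 0.30), the only member of 52 without a p-value in the authors' deposited table, beside 2.23% of all genes at that level. Of the tested members, Pcdhga7 (-0.41), Pcdhgb7 (-0.41) and Pcdhb10 (-0.40) were lowest, and Pcdhb13 (0.42), Pcdhgb2 (0.34) and Pcdhb7 (0.33) highest, in the authors' deposited table. Pcdhgc3 was at -0.37 (standard error 0.24, adjusted p = 0.986), Pcdhac2 at -0.18, Pcdhac1 at 0.13 and Pcdhgc5 at 0.12, in the authors' deposited table.

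Whether the fold change of a member depended on the weaning diet in females was tested as the difference between the tables of HCD-weaned and RD-weaned females, divided by the combined standard error, with adjustment over the 14603 genes tested in both. None of 50 members passed an adjusted p of 0.05, beside 0.00685% of all genes, and 4 had an unadjusted p under 0.05, beside 5% of genes. The gamma differences had a median of -0.55 and were below 0 in 18 of 21 members, which share exons and are not independent readings. Over all genes the median was 0.02 and 6909 of 14603 were below 0. Computed from the values the authors deposited, the largest was that of Pcdhgc5, -1.32 (95% interval -2.30 to -0.34, p = 0.00819, adjusted p = 0.825). From the authors' values the difference for Pcdhgc3 was -0.99 (95% interval -1.95 to -0.04, adjusted p = 0.989). Turning the sign of the RD-weaned females' table, which would apply if its groups were read in the wrong order, gave 1 called member of 50, Pcdhgc3, with an adjusted p of 0.0427, beside 186 of 14603 genes called under that reading.

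Between the sexes of the RD-weaned offspring, none of 31 members with an adjusted p in both tables differed at an adjusted p of 0.05, beside 0.00791% of the 12636 genes tested, and none had an unadjusted p under 0.05, beside 3.05% of genes. The gamma median of these differences, males minus females, was 0.13 over 13 members. Differences that involve HCD-weaned males use the comparison the family was chosen from and are given as values alone. Gamma fold changes in HCD-weaned males were lower than in RD-weaned males for 14 of 14 members with an adjusted p in both. The median difference was -0.49, against -0.0074 over all genes, of which 6540 of 12910 were lower. The gamma members share exons, so this is not a count of independent readings. Against HCD-weaned females, gamma fold changes in HCD-weaned males were lower for 12 of 22 members, with a median difference of -0.08. Over all genes 8124 of 14947 were lower there, with a median of -0.03.

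Transcript length moved with the fold changes in the same tables. Over all genes tested, Spearman's rho between the Wald statistic (fold change over standard error) and transcript length was -0.54, -0.44, 0.08 and -0.22, a relation across genes, which are not independent replicates. Genes with a longest transcript of 4000 to 6000 bases, the range that holds every gamma member, had median log2 fold changes of -0.13, -0.07, 0.03 and -0.03 in the 4 comparisons. Genes of 2500 to 4000 bases, where many beta members lie, had medians of 0.02, 0.07, 0.01 and 0.02. With the trend on length removed, the gamma median was -0.47 in HCD-weaned males and -0.40 in HCD-weaned females, with 22 of 22 members below 0 in both, and the alpha medians were -0.11 and -0.04. Removing the same trend from the Wald statistics raised the adjusted p of Pcdhgb8 in HCD-weaned males from the authors' value to 0.0763. The part of length in the protocadherin values was not tested beyond these fits.

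**Figure D5:**
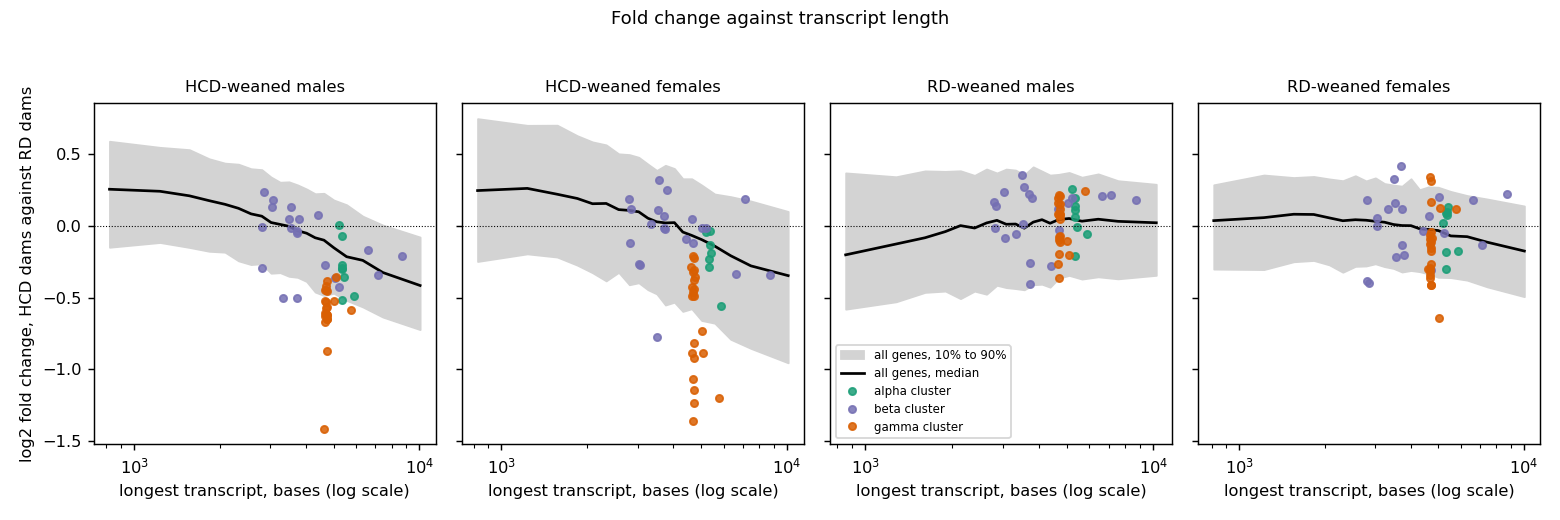
Log2 fold change against the length of the longest transcript (log axis), one panel per comparison, for genes with a mean normalized count of 10 or more. The black line is the median and the grey band the 10th to 90th percentile of all genes in 20 length classes; coloured points are members. In the tables of HCD-weaned offspring the line falls with length and the gamma points lie below it.

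Genes beside the locus were counted as neighbours that share its place on the chromosome. Of 26 listed genes within 300 kb of the clusters or between them, 21 had a mean of 10 or more in HCD-weaned males and 7 of those were below 0, with a median of 0.10, and the counts were 7 of 21 with a median of 0.10 in HCD-weaned females. Among RD-weaned males 14 of 19 were below 0 with a median of -0.19, and in RD-weaned females 6 of 21 with a median of 0.12. Taf7, which encodes a subunit of the general transcription factor TFIID and lies between the beta and gamma clusters, had log2 fold changes of 0.07, -0.31, 0.93 and 0.30 in the authors' deposited tables, none of them called. Among these neighbours Ndufa2 was called in HCD-weaned females (1.09, adjusted p = 0.0227) and Fchsd1 in RD-weaned males (-1.35, adjusted p = 0.00239), in the authors' deposited tables. Over all genes 1.52% and 0.0851% were called in those comparisons.

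Genes that act on the locus were then counted. Over all genes 51.1%, 45.6%, 49.7% and 49.4% were below 0 in the 4 comparisons. The counts and medians of these lists were not corrected for transcript length, with which fold changes fell in HCD-weaned offspring. The part of length in them was not tested. Of 11 architectural and cohesin genes, which encode CTCF, the cohesin ring, its loaders and its regulators, none was called in any comparison. In HCD-weaned males 11 of 11 were below 0 with a median of -0.30, and in HCD-weaned females 8 of 11 with a median of -0.30. In RD-weaned males and females 4 and 6 of 11 were below 0, with medians of 0.12 and -0.03. The extremes ran from Pds5a (-0.74) to Mau2 (-0.04), from Rad21 (-0.91, adjusted p = 0.0627) to Smc3 (0.14), from Ctcf (-0.35) to Stag2 (0.56) and from Mau2 (-0.23) to Smc1a (0.18) in the 4 comparisons of the authors' deposited tables, in the same order. Of 12 DNA methylation and silencing genes none was called, with 10 of 12, 10 of 11, 5 of 11 and 9 of 12 below 0 and medians of -0.27, -0.34, 0.01 and -0.08. Tet2, which oxidizes methylated cytosine, was lowest in 3 tables, at -1.31 (adjusted p = 0.0813), -0.76 and -0.45 in HCD-weaned females, RD-weaned males and RD-weaned females, and Tet3 was lowest in HCD-weaned males at -0.72, in the authors' deposited tables. The highest were Trim28 (0.37 and 0.42 in HCD-weaned males and females), Smchd1 (0.23) and Tet3 (0.08), in the authors' deposited tables.

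Proteins that act with or on clustered protocadherins gave 2 calls. The list of 16 cytoplasmic partners holds the kinases bound by the constant domains and the WAVE complex, which drives actin branching. Cyfip2, a WAVE subunit, was lower in HCD-weaned females (-0.91, adjusted p = 0.0227), and Ptk2b, the kinase Pyk2, was higher in RD-weaned females (0.93, adjusted p = 0.0466), in the authors' deposited tables. Of all genes tested, 1.52% and 0.346% were called in those comparisons. The call of Cyfip2 was lost with the trend on transcript length removed, and that of Ptk2b without a filter on low counts. The list's medians were -0.04, -0.04, 0.08 and 0.12, with 9, 10, 5 and 6 of 16 below 0. Its other extremes were Wasf2 (-0.48) and Brk1 (0.11) in HCD-weaned males, Wasf3 (-0.94) and Marcks (0.52) in HCD-weaned females, Wasf3 (-0.46) and Wasf1 (0.55) in RD-weaned males and Wasf3 (-0.53) in RD-weaned females, in the authors' deposited tables. Of 8 proteases that cut these proteins (Adam10 among them) none was called, with 5, 2, 3 and 2 below 0 and medians of -0.03, 0.16, 0.08 and 0.07. Extremes were Adam10 (-0.50) and Psen2 (0.53) in HCD-weaned males, Adam10 (-0.49) and Psen2 (0.48) in HCD-weaned females, Adam17 (0.38) in RD-weaned males, and Psen2 (-0.29) and Aph1a (0.21) in RD-weaned females, in the authors' deposited tables.

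Other adhesion families were counted in the same way, again without a correction for transcript length. Of 12 non-clustered protocadherins and related genes with a mean of 10 or more, 11, 9, 3 and 10 were below 0 in the 4 comparisons, with medians of -0.50, -0.24, 0.09 and -0.25. Pcdh15, known from the tip links of hair cells, was called in RD-weaned males (-1.10, adjusted p = 0.0387), by the authors' deposited table, and this call was lost without a filter on low counts. Over all genes 0.0851% were called in that comparison. The other extremes were Pcdh17 (-0.83) and Pcdh20 (0.0010), Pcdh1 (-1.19) and Cdhr1 (0.22), Pcdh9 (0.35), and Pcdh17 (-0.56) and Pcdh20 (0.48), in the authors' deposited tables in that order. Of 19 other neuronal recognition molecules, 18, 17, 8 and 14 were below 0 with medians of -0.42, -0.29, 0.06 and -0.08, and none was called. Lrrtm2 was lowest in HCD-weaned females at -0.90, and the other comparisons ran from Sdk2 (-0.89) to Lrrtm1 (0.07), from Celsr2 (-0.21) to Lrrtm1 (0.77) and from L1cam (-0.60) to Nlgn1 (0.16) in the authors' deposited tables. Of 14 classical cadherins and catenins, 11, 10, 3 and 11 were below 0 with medians of -0.34, -0.08, 0.13 and -0.22, and none was called. They ran from Cdh4 (-0.64) to Ctnnb1 (0.29), from Cdh11 (-0.88) to Cdh10 (0.14), from Cdh13 (-0.29) to Ctnnb1 (0.40) and from Cdh4 (-0.58) to Cdh9 (0.60) in the authors' deposited tables.

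Markers of cell types and of neighbouring tissue were summarised for the same comparisons. The shares of all genes called were 0.163%, 1.52%, 0.0851% and 0.346%, in the order of the comparisons. Those of all genes below 0 were 51.1%, 45.6%, 49.7% and 49.4%. In HCD-weaned males 16 of 18 hypothalamic markers were below 0 with a median of -0.85, and 5 of them (Oxt, Pmch, Hcrt, Sim1 and Fezf1) were called lower in the authors' deposited table. In HCD-weaned females the median of the 14 such markers with a mean of 10 or more was -0.13, and in RD-weaned males and females it was -0.15 and -0.30. Markers of neurons in general had medians of -0.05, 0.13, 0.21 and 0.11 over 8 genes, and those of astrocytes -0.15, -0.31, -0.21 and -0.18 over 7. Called in HCD-weaned females were 1 general neuron marker, higher, and 1 astrocyte marker, lower. For RD-weaned males the call was 1 general neuron marker, higher. Meningeal markers had medians of -0.59, -0.51, -0.10 and 0.04 over 7 genes, with 1 called lower in HCD-weaned males. Striatal markers had medians of -0.66, 0.16, 0.09 and 0.42 over 6. In RD-weaned females choroid plexus markers had a median of 0.84, with 5 of 5 above 0 and Kl and Kcnj13 called, and 6 of 6 markers of cortex and hippocampus were above 0 with a median of 0.82 and none called. Thalamic markers were above 0 in 6 of 6 cases in RD-weaned males (median 0.57, none called) and below 0 in 6 of 6 in RD-weaned females (median -0.46, Calb2 called). The medians of the striatal list come with no called gene in any table. Medians ran from -0.33 to 0.40 for ependyma and tanycytes, from -0.09 to 0.34 for microglia, from -0.15 to 0.23 for oligodendrocytes and from -0.15 to 0.24 for endothelium, with no call. The 3 serotonin neuron markers summed to a mean normalized count of 747 in the authors' table of RD-weaned males, against 46.0 to 98.9 in their other tables. No marker on these lists was listed at 0. The part of cell makeup in the protocadherin values was not tested.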

How the data were processed

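Stranded poly(A) libraries from the hypothalamus of 25 mice were sequenced, per the labels' protocols. DESeq (version not stated) and the build mm10 appear in the submitters' processing notes. Which aligner, counter and annotation served is not given in the sources used here. The authors' 4 comparison tables were used out of 12 deposited files. The other 8 hold 48 library columns whose names match no label, and those columns were not used. Depth, group means and errors per sample are therefore not given here.

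Each table's mean column is a signal on the scale of normalized counts, as deposited. Fold changes and their standard errors are log2 values as deposited, and whether they were shrunken toward 0 is not stated. The Wald statistic is a score that equalled the ratio of the 2 in the deposited tables. Every p-value within a comparison comes from the authors, and recomputed Benjamini-Hochberg values over the genes with an adjusted p matched them to rounding. Counts below 0 and medians cover genes whose mean reached 10. Genes with an adjusted p under 0.05 count as called. Some genes above that mean have no p-value, 1554 of them in RD-weaned males and 342 in the females.

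Differences between comparisons were tested with the normal distribution and adjusted over all genes tested in both tables, after a test on simulated data. Transcript lengths and GC content come from GENCODE M21, with a length for 57 of 58 members and 95.7% of genes, and trends were removed by lowess with a span of 0.3. Python 3.11.15, numpy, pandas, scipy and statsmodels were used. The members and lists were chosen with earlier results of these data known. Named members are Pcdhgb8, the C-type members, the 3 lowest and 3 highest in each comparison, the 2 highest in level of the alpha, beta, gamma A and gamma B types, and those next to a mean of 10. From the lists, called genes and the lowest and highest gene of each comparison are named, except that some of these are not reported here.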

Additional observations from a re-analysis of the deposited data

How the results depend on the processing

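From the values the authors deposited for HCD-weaned males, the count of 1 called member, Pcdhgb8, became 0 over genes with a mean of 100 or more, where Pcdhgb8 is not tested, 0 with the Wald statistic divided by its robust spread (adjusted p = 0.21), and 0 with the trend on transcript length removed (adjusted p = 0.0763). It was 1 under the other 5 settings, 1 of which, removing length and GC content together, was chosen after seeing the data. Pcdhgb8 in this comparison chose the family, so these counts are a description and lend its call no support. For HCD-weaned females the count of 0 became 1 of 51 (Pcdhgc3) at an adjusted p under 0.10, where calls over all 15043 genes rose from 229 to 450. Reading the RD-weaned females' table with its sign turned gave 1 member, against 0, whose fold change differed from HCD-weaned females, while calls over all genes went from 1 to 186. Restricting medians to members with a mean of 100 or more gave -0.56 for alpha (1 member) and -0.92 for gamma (9 members) in HCD-weaned females and -0.18 for alpha (1 member) in RD-weaned females. The cause of these changes was not tested. The other 85 of 88 medians moved by less than the members' median standard error, and 7 of the 88, none of them a gamma median in HCD-weaned offspring, changed sign. In RD-weaned males the gamma median, 0.07, became -0.10 over the 11 members with a mean of 100 or more. Of 224 counts of called list genes, 11 differed from the main count by more than 1.5 times.

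No paired analysis was possible because the deposited library columns carry no replicate number or sample of the labels. For the same reason the edgeR and DESeq2 fits and leaving out each replicate were not run. With 3 or 4 samples per group and standard errors of up to 0.45, changes of the size seen in most members could not be called.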
